A study of Homo sapiens with 6 samples.

Results

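The genes described here are 10 genes of immune recognition on tumour cells: the PD-1 ligands CD274 (PD-L1) and PDCD1LG2 (PD-L2), the related ligand CD276, the nectin family ligands NECTIN2 and PVR, the ligands LGALS9, CD47 and CD58, and the receptors VSTM1 and SLAMF6. They were chosen by gene symbol with earlier results of these libraries known, some of them for a rise after ZNFX1 knockout, and all 10 were found among the 62260 gene rows of the files. Because the reads and TPM values of this same comparison guided the choice, their levels and fold changes are a description, with no p-value, and nothing is read from whether they pass a threshold. RNA was sequenced from TYK-nu cells, an ovarian cancer line, in 3 ZNFX1 KO libraries and 3 wild type (WT) libraries of untreated cells that the labels place in a single batch. ZNFX1 encodes a zinc finger helicase that takes part in antiviral RNA sensing, and the comparison asks which transcripts differ when the gene has been knocked out. How the knockout was made, and whether the KO cells are a clone or a pool, is not given in the labels, so an effect of the gene and other differences between the lines cannot be told apart. The labels call the libraries biological replicates without naming separate cultures, so each p-value measures only how these libraries vary.

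PD-L1 and PD-L2 on a tumour cell bind PD-1 on T cells and dampen their activation, and CD274 is well known to be induced by interferon through the factor IRF1. CD47 binds SIRPA on macrophages and holds back phagocytosis, whereas PVR and NECTIN2 are recognised by the activating receptor CD226 and the inhibitory receptor TIGIT on T cells and NK cells. CD58 is the partner of CD2 on T cells, an adhesion and costimulatory pair. VSTM1 (also called SIRL-1) and SLAMF6 are best known from leukocytes, as an inhibitory receptor of myeloid cells and a self-binding receptor of lymphocytes.

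VSTM1 is shown first as sequence, because its transcripts differ in whether they hold the exons of its extracellular part. VSTM1 (ENSG00000189068.11, GRCh38 chromosome 19, 54040825 to 54063953, minus strand) has in GENCODE 29 a full transcript, VSTM1-201, and a shorter coding transcript, VSTM1-202, that leaves out 3 coding exons of 36, 285 and 39 bases. The 360 bases left out divide by 3 with a remainder of 0. The 285-base exon codes for most of the single immunoglobulin-like domain of the receptor. The exon (chr19:54058306-54058590, minus strand) is printed in lower case. Beneath it stand 2 exon junctions (GENCODE 29, GRCh38) that tell VSTM1-202 from VSTM1-206. Capitals mark the first 20 bases of the exon that follows exon 1. VSTM1-201 has the same junction after exon 1 as VSTM1-206, so the junction does not tell these apart. VSTM1-206, annotated as a target of nonsense-mediated decay, keeps the 3 exons.
VSTM1 longest coding exon: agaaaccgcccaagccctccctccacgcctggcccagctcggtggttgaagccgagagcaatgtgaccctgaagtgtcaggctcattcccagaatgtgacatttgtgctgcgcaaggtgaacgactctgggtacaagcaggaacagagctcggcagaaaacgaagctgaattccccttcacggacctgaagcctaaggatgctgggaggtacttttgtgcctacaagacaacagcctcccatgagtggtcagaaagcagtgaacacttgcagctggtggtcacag
VSTM1-202 junction after exon 1: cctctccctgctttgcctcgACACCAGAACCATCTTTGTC
VSTM1-206 junction after exon 1: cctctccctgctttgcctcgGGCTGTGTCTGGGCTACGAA

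The promoters of CD274 and SLAMF6 are printed because these genes stood higher in the KO libraries and the interferon elements of CD274 are the textbook route to its induction. RefSeq promoters (GRCh38.p14) were at hand for 8 of the 10 genes, all but VSTM1 and PDCD1LG2. Each stretch runs from 250 to 51 bases before the start that RefSeq gives the gene (5450542 for CD274 and 160523255 for SLAMF6, which differ from the GENCODE 29 starts given below), for CD274 at chr9:5450292-5450491 (plus strand) and for SLAMF6 at chr1:160523306-160523505 (minus strand). Capitals mark matches to the core of the interferon-stimulated response element (GAAANNGAA) and to the interferon gamma activated site (TTCNNNGAA), searched on both strands. In CD274 the response element core matched at 2 overlapping places, 207 to 199 and 201 to 193 bases before the start, and the activated site matched 125 to 117 bases before it.
CD274 promoter: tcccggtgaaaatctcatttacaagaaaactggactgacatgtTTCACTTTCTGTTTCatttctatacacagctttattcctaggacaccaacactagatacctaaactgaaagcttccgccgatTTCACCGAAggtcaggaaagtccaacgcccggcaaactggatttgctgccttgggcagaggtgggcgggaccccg
SLAMF6 promoter: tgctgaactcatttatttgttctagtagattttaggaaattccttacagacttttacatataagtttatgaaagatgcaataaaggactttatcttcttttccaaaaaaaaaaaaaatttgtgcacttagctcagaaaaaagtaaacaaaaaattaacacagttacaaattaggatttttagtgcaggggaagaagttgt

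The 250 bases before the start were searched in each case, and an AP-1 site (TGANTCA) was the third motif. Over all 35116 RefSeq promoters 6.9% held the response element core, 6.6% the activated site and 6.6% the AP-1 site. Of the 8 promoters, that of CD274 matched the first 2 motifs, and the other 7 matched none of the 3. A match describes letters in the window and not binding.

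The libraries held 21413002 to 23494771 assigned fragments, of which 19115530 to 21036063 lay on gene rows, and the 10 genes were measured in every library. CPM below are counts on gene rows scaled to the library's total with TMM factors, and TPM are the deposited values per transcript length. ZNFX1 itself was at 82.7 ± 17.3 CPM in ZNFX1 KO and 149 ± 52.1 CPM in WT (SD, n = 3 each), with every KO library below every WT library (log2 fold change -0.85, SE 0.27, edgeR adjusted p = 0.218; exact two-sided permutation p = 0.1, the smallest that 3 against 3 libraries allow). Of 25 leukocyte markers, 12 had no read in any library, among them PTPRC, CD3D, CD2, CD4, CD8A, CSF1R, TYROBP and NKG7. The summed level of the list was 5.15 to 9.98 TPM in ZNFX1 KO and 7.02 to 16.2 TPM in WT, and ITGAX and LYZ, both myeloid genes, made up most of it. LYZ was at 4.68 ± 2.996 CPM in ZNFX1 KO and 1.43 ± 1.24 CPM in WT (log2 fold change 1.70, SE 0.66, edgeR adjusted p = 0.293; higher in 3 of 3 KO libraries), and ITGAX at 14.4 ± 3.75 CPM in ZNFX1 KO and 48.6 ± 38.0 CPM in WT (log2 fold change -1.75, SE 0.58, edgeR adjusted p = 0.234). By library LYZ was at 8.14, 2.93 and 2.98 CPM in ZNFX1 KO 1, 2 and 3. In WT 1, 2 and 3 it was at 0.437, 1.03 and 2.82 CPM. KO 1 thus stood apart, with KO 2 and KO 3 just above WT 3, whereas SLAMF6 was lowest among the KO libraries in KO 1. Of 4 tested leukocyte markers 3 had a fold change above 0 and 1 below. The part of LYZ and ITGAX in the levels of the leukocyte genes VSTM1 and SLAMF6 was not tested. Among 18 ovarian cancer markers KRT18 (78.0 TPM in ZNFX1 KO, 53.5 TPM in WT) and MECOM (32.6 TPM in ZNFX1 KO, 31.5 TPM in WT) were abundant and WT1 was low (1.53 TPM in ZNFX1 KO, 1.63 TPM in WT). The defining Müllerian markers PAX8 and MUC16 had at most 1.3 reads in a library, so these libraries carry few of the marks usually used for an ovarian epithelial origin.

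Measured per length, the 10 genes ran from about 27 TPM to under 0.1 TPM. In ZNFX1 KO the order of mean TPM was NECTIN2 (27.5 ± 2.56), VSTM1 (19.9 ± 3.12), PVR (17.1 ± 3.18), CD276 (11.2 ± 1.59), CD47 (9.77 ± 2.83), SLAMF6 (7.25 ± 2.90), CD58 (4.86 ± 1.15), CD274 (1.80 ± 1.25), PDCD1LG2 (0.898 ± 0.480) and LGALS9 (0.0437 ± 0.0385; SD, n = 3). In WT the order was NECTIN2 (26.9 ± 4.24), PVR (24.9 ± 6.85), CD276 (12.4 ± 4.63), CD58 (7.90 ± 2.91), CD47 (7.62 ± 0.817), VSTM1 (2.65 ± 0.984), SLAMF6 (1.51 ± 0.127), PDCD1LG2 (0.294 ± 0.155), CD274 (0.252 ± 0.0670) and LGALS9 (0.0604 ± 0.0291; SD, n = 3). VSTM1 therefore stood in the second place in ZNFX1 KO and in the sixth in WT. Neighbours in the KO order overlapped in their library values for VSTM1 and PVR, CD276 and CD47, CD47 and SLAMF6, SLAMF6 and CD58, and CD274 and PDCD1LG2. Overlaps in the WT order were those of NECTIN2 and PVR, CD276 and CD58, CD58 and CD47, and PDCD1LG2 and CD274.

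**Figure D1:**
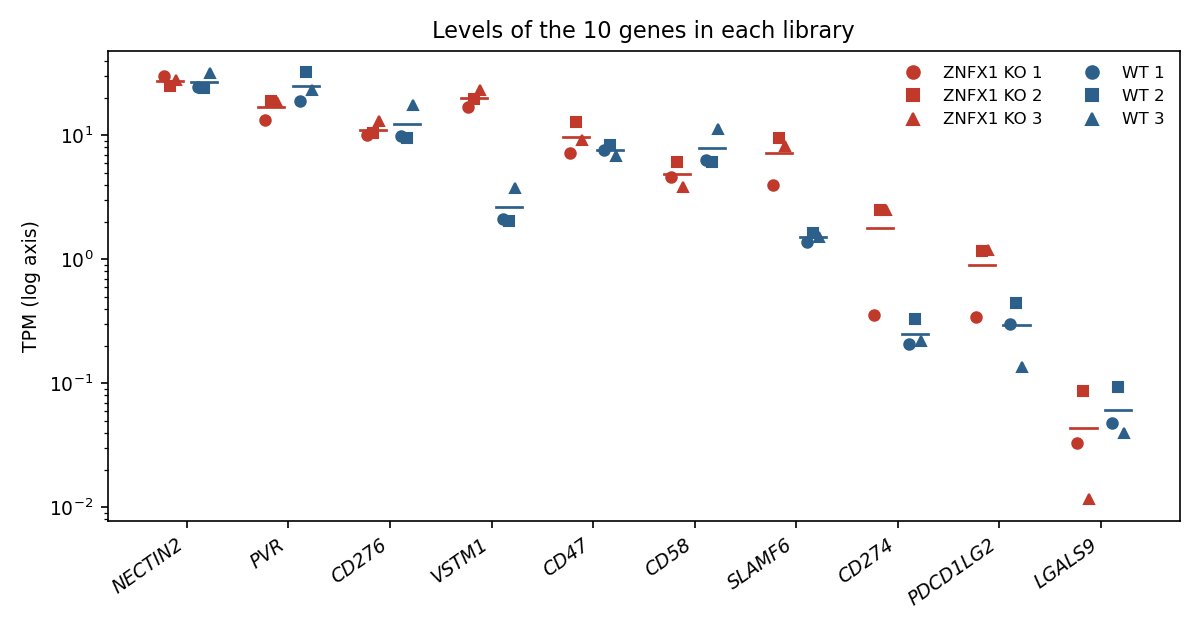
Deposited TPM (log axis) of the 10 genes in each library, with ZNFX1 KO in red left of WT in blue, lines at group means and 1 marker shape per replicate number. VSTM1, SLAMF6 and CD274 lie higher in the 3 KO libraries than in the 3 WT libraries, and the CD274 value of KO 1 (0.358 TPM) lies just above the highest WT value (0.329 TPM).

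Of the 10 genes 9 passed the low-count filter and 2, VSTM1 and SLAMF6, were called higher in the KO by edgeR at an adjusted p below 0.05, beside 0.727% of all 14166 genes tested (0.268% higher, 0.459% lower). With the DESeq2 Wald test 3 of the 9 genes were called, beside 4.09% of all, and with the replicate number as a block 1, beside 0.0988%. The VSTM1 call was not made without KO 2 (log2 fold change 3.04), nor that of SLAMF6 without KO 2 (2.12), KO 3 (2.16) or WT 1 (2.32), whereas CD274 was called without KO 1 (3.22). These counts and calls support nothing, since the same contrast served to choose the genes. The 9 fitted log2 fold changes had a median of 0.28, with 6 above 0 and 3 below, beside a median of -0.01 over all genes tested. Library values of the groups did not overlap in CPM for CD274, VSTM1 and SLAMF6, each higher in KO, and for CD58, lower in KO, where 20.2% of all tested genes did not overlap (9.40% higher, 10.8% lower).

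**Figure D2:**
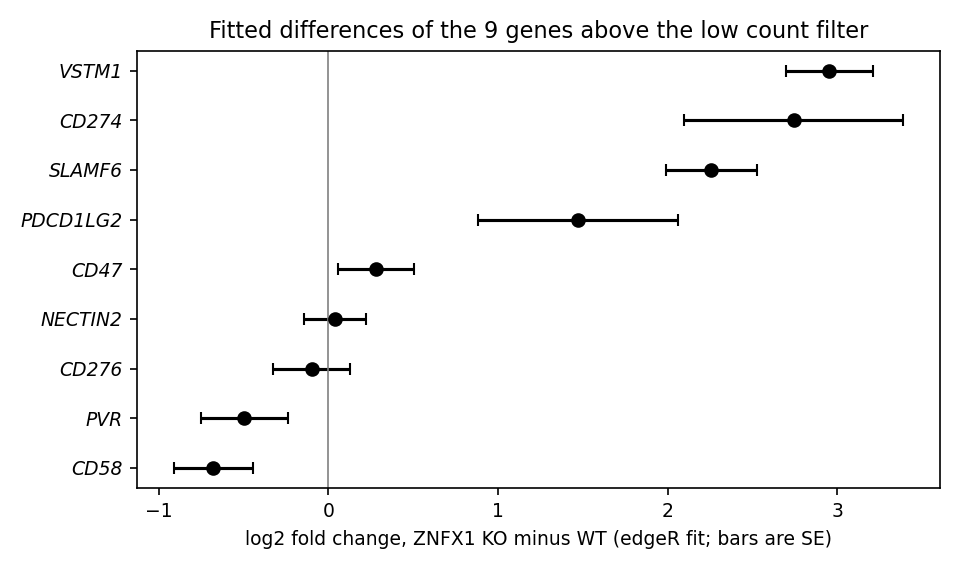
Fitted log2 fold changes, ZNFX1 KO over WT, of the 9 genes above the low-count filter, with bars of 1 standard error (edgeR). The values run from 2.95 for VSTM1 to -0.68 for CD58, and the longest bars are those of CD274 and PDCD1LG2.

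CD274, the gene of PD-L1 (ENSG00000120217.14, chromosome 9, 5450503 to 5470566, plus strand), was at 2.09, 11.99 and 13.7 CPM in ZNFX1 KO 1, 2 and 3, from 43.0, 238 and 264 reads. In WT 1, 2 and 3 it was at 1.24, 1.94 and 1.01 CPM, from 24.3, 38.5 and 22.1 reads. KO 2 and KO 3 stood far above the rest, while KO 1 lay next to the highest WT library, so that the highest KO library exceeded the lowest by 6.59 times. The group means differed by a log2 fold change of 2.74 (SE 0.65). Without KO 1 it was 3.22.

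PDCD1LG2, the gene of PD-L2 (ENSG00000197646.8, chromosome 9, 5510570 to 5571254, plus strand), begins 40004 bases beyond the end of CD274. Its levels were 1.31, 3.63 and 4.22 CPM in ZNFX1 KO 1, 2 and 3, against 1.17, 1.72 and 0.410 CPM in WT 1, 2 and 3. KO 2 and KO 3 were again above every WT library, and KO 1 fell inside the WT range. The log2 fold change was 1.47 (SE 0.59), at 9.0 to 81.1 reads a library. Per length, CD274 exceeded PDCD1LG2 by 1.04, 2.16 and 2.13 times in the 3 KO libraries, against ratios of 0.691, 0.740 and 1.60 in the 3 WT libraries.

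Neither this pair on chromosome 9 nor the tested genes around it were called by edgeR in the main fit. PLGRKT, a plasminogen receptor gene 12625 bases before CD274 on the other strand, was at 22.8 ± 2.06 CPM in ZNFX1 KO and 17.1 ± 1.55 CPM in WT (SD, n = 3 each; log2 fold change 0.42, SE 0.17, edgeR adjusted p = 0.314; higher in 3 of 3 KO libraries). AK3, a mitochondrial adenylate kinase gene of the list (4709559 to 4742043), lies farther from CD274 than PLGRKT. AK3 was higher in 3 of 3 KO libraries, at 73.3 ± 9.67 CPM in ZNFX1 KO and 42.1 ± 9.02 CPM in WT (SD, n = 3 each; log2 fold change 0.80, SE 0.21, edgeR adjusted p = 0.145). RIC1, the next coding gene beyond PDCD1LG2, was at 25.6 ± 4.26 CPM in ZNFX1 KO and 23.3 ± 2.91 CPM in WT (log2 fold change 0.14, SE 0.19, edgeR adjusted p = 0.755). Of 8 tested neighbours of the pair 0 were called by edgeR, and their median log2 fold change was 0.08.

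Known regulators of PD-L1 did not move with it as a list. Of 26 tested regulators edgeR called 0, with 13 fold changes above 0, 13 below and a median of 0.02. IFNGR2, a chain of the interferon gamma receptor, was at 131 CPM in ZNFX1 KO and 154 CPM in WT (log2 fold change -0.23, SE 0.21, edgeR adjusted p = 0.614), and MYC at 178 CPM in ZNFX1 KO and 194 CPM in WT (log2 fold change -0.13, SE 0.18, edgeR adjusted p = 0.747). IRF1, named after its values were seen, was at 10.5, 12.3 and 11.8 CPM in ZNFX1 KO and at 24.5, 55.7 and 10.1 CPM in WT (log2 fold change -1.38, SE 0.51, edgeR adjusted p = 0.273). Interferon-stimulated genes had 26 tested members, all with a fold change below 0 (median -1.21) and 0 called by edgeR, ISG15 (log2 fold change -1.86, SE 0.63, edgeR adjusted p = 0.244) and IFI6 (-2.11, SE 0.63, edgeR adjusted p = 0.193) being the most abundant. By library their median log2-CPM, less each gene's mean over the 6 libraries, was -0.19, -0.56 and -0.70 in ZNFX1 KO 1, 2 and 3 and 0.08, 1.71 and -0.28 in WT 1, 2 and 3. The 2 libraries with most CD274 had the lowest interferon-stimulated genes, and WT 2, with the highest, had more CD274 (1.94 CPM) and more PDCD1LG2 (1.72 CPM) than the other WT libraries. The part of these genes in the level of CD274 was not tested.

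**Figure D3:**
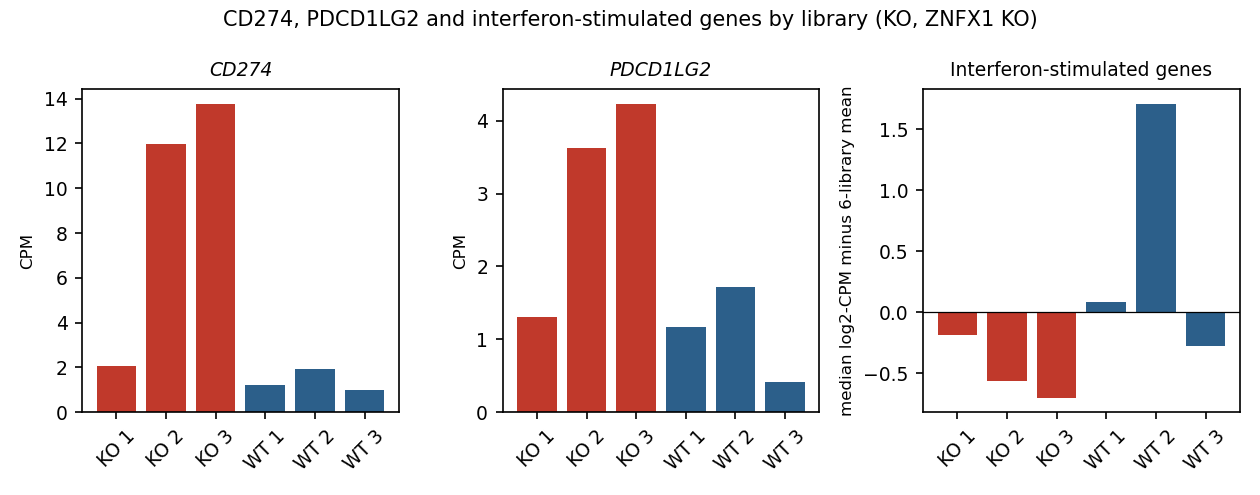
CPM of CD274 and PDCD1LG2 in each library and, on the right, the median over 26 interferon-stimulated genes of log2-CPM less the mean of the 6 libraries, with ZNFX1 KO (red) left of WT (blue). CD274 peaks in KO 2 and KO 3 (11.99 and 13.7 CPM), and the interferon-stimulated genes peak in WT 2 (1.71).

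CD276, or B7-H3 (ENSG00000103855.18, chromosome 15, 73683966 to 73714518, plus strand), was the most abundant B7 ligand among the genes. It was at 45.2, 34.0 and 54.2 CPM in ZNFX1 KO against 38.9, 45.7 and 58.0 CPM in WT (log2 fold change -0.10, SE 0.23), with both groups spanning much the same range. Per length CD276 exceeded CD274 by 28.1, 4.14 and 5.15 times in ZNFX1 KO 1, 2 and 3, against 47.2, 28.98 and 81.0 times in WT. The gene row held 60.2 to 82.8% of the reads joined to CD276, since a retained-intron transcript, CD276-207, was listed apart with 16.5 to 32.3% of them.

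Among the other B7 ligands 3 passed the filter and 1 was called, beside 0.727% of all genes tested. The gene lists were chosen with earlier results of these data known. The adjusted p-values of listed genes, here and elsewhere in the text, are therefore not free of that choice. VSIR, the gene of the checkpoint molecule VISTA, fell to 1.01 ± 0.136 CPM in ZNFX1 KO, against 5.63 ± 2.21 CPM in WT (SD, n = 3 each; log2 fold change -2.48, SE 0.37, edgeR adjusted p = 0.0285; lower in 3 of 3 KO libraries). The call was made in 10 of 17 alternatives (edgeR, limma or DESeq2 adjusted p 2.86e-06 to 0.198, log2 fold change -2.63 to -0.63) and was lost without KO 1, KO 2, KO 3, WT 1 or WT 2. With all libraries kept, it was also lost with log2(TPM + 1) and with the replicate block. CD80 and CD86, the ligands of CD28, had no reads.

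NECTIN2 (CD112; ENSG00000130202.10, chromosome 19, 44846175 to 44889228, plus strand) was the most abundant of the 10 genes per length. It was at 120, 80.7 and 104 CPM in ZNFX1 KO against 99.4, 98.6 and 98.3 CPM in WT. The WT libraries lay within 1.01 times of each other, and the KO libraries were on either side of them (log2 fold change 0.04, SE 0.18). NECTIN2 exceeded PVR per length by 2.23, 1.302 and 1.48 times in ZNFX1 KO, against 1.295, 0.748 and 1.36 times in WT.

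PVR (CD155, the poliovirus receptor; ENSG00000073008.16, chromosome 19, 44643798 to 44663583, plus strand) was at 66.8, 78.5 and 87.5 CPM in ZNFX1 KO against 84.0, 155 and 89.0 CPM in WT. WT 2 stood alone at the top, and the other 5 libraries overlapped (log2 fold change -0.50, SE 0.26; -0.15 without WT 2). The gene row held only 38.8 to 48.4% of the reads joined to PVR. The rest lay mostly in PVR-201, a transcript annotated as a target of nonsense-mediated decay, at 16.5, 20.4 and 22.3 TPM in ZNFX1 KO against 25.8, 39.9 and 25.3 TPM in WT. PVR-201 took 55.1, 51.3 and 54.2% of the joined reads in ZNFX1 KO against 60.7, 56.4 and 52.6% in WT, and the groups overlapped (exact two-sided permutation p = 0.4, where 0.1 is the smallest possible). Joining all transcript rows gave a log2 fold change of -0.59 (SE 0.25).

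PVR-201 differs from the coding transcript PVR-205 at the start of exon 2, where PVR-201 lacks 77 bases, which divide by 3 with a remainder of 2. The other coding transcripts were not compared at this place. The stretch (chr19:44647223-44647311, plus strand, GENCODE 29, GRCh38) is printed to show the difference, with the 77 bases in lower case and the first 12 bases that both transcripts share in capitals. An antisense gene, AC243964.2, overlaps PVR (1.37 CPM in ZNFX1 KO, 2.50 CPM in WT), and whether the counting used strand is not given in the sources used here.
PVR exon 2 stretch: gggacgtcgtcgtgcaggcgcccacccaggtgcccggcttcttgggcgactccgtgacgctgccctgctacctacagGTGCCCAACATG

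The length that Salmon gives a gene row is a mean over its transcripts weighted by abundance, so it moves with their mix and was not used in choosing the genes. For PVR it was 3125.9, 3153.4 and 3133.1 bases in ZNFX1 KO against 2744.2, 2979.4 and 3032.4 bases in WT. Every KO library was longer than every WT library, by 219 bases in the mean. KO libraries were all longer for 5.56% of the 9275 tested genes whose length varied by at least 1 base, and for 9.78% the groups did not overlap, counting both directions. PVR had p = 0.1 by exact two-sided permutation, the lowest that can be reached (0.35 after Benjamini-Hochberg adjustment over 7 genes). PVR-204, at 1344 bases, is the shortest of the basic-set transcripts of GENCODE 29, and the others have 3078 to 3325 bases. The deposited gene row does not say which of them moved the mean.

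**Figure D4:**
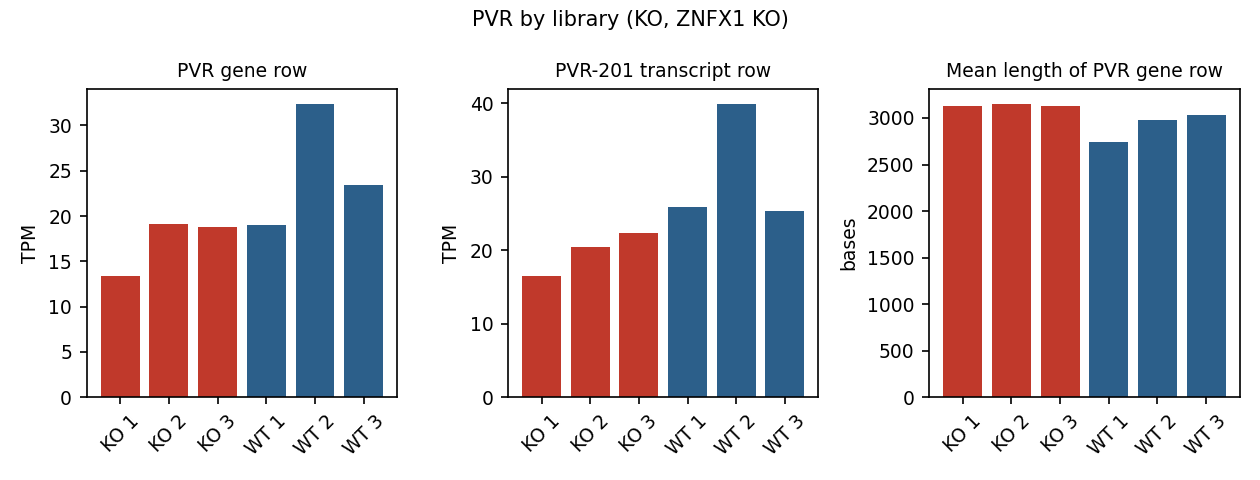
PVR in each library as TPM of the gene row, TPM of the separate PVR-201 row and the weighted mean length of the gene row in bases, with ZNFX1 KO (red) left of WT (blue). WT 2 is highest in both TPM panels (32.4 and 39.9 TPM), and the mean length is at least 3125.9 bases in KO and at most 3032.4 bases in WT.

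Of 2 other tested genes of the nectin and nectin-like list 1 was called, beside 0.727% of all genes tested. NECTIN1, an adhesion molecule that also serves herpes simplex virus as a receptor, fell to 29.8 ± 3.36 CPM in ZNFX1 KO, against 62.9 ± 1.98 CPM in WT (SD, n = 3 each; log2 fold change -1.08, SE 0.16, edgeR adjusted p = 0.0285; lower in 3 of 3 KO libraries). It was called in 9 of 17 alternatives (edgeR, limma or DESeq2 adjusted p 1.69e-06 to 0.191, log2 fold change -1.14 to -0.86) and not without KO 1, KO 2, KO 3, WT 1 or WT 2. With all libraries kept, the call was also lost with log2(TPM + 1), log2(TPM + 0.1) and the replicate block.

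LGALS9, the gene of galectin-9, a ligand of TIM-3 (ENSG00000168961.17, chromosome 17, 27629798 to 27649560, plus strand), had 3.3, 6.7 and 1.0 reads in ZNFX1 KO against 4.6, 9.0 and 3.3 reads in WT. It did not pass the filter, and no difference could be detected at this depth. The galectins LGALS1 (log2 fold change 0.34, SE 0.20, edgeR adjusted p = 0.437) and LGALS8 (0.05, SE 0.22, edgeR adjusted p = 0.925) were the 2 others tested, and neither was called.

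CD47 (ENSG00000196776.17, chromosome 3, 108043094 to 108091862, minus strand) was at 61.5, 89.2 and 73.7 CPM in ZNFX1 KO against 66.0, 72.8 and 45.8 CPM in WT. KO 2 and KO 3 were above every WT library by a little, and KO 1 lay within the WT range (log2 fold change 0.28, SE 0.22). A transcript with an alternative first exon, CD47-206, was listed apart and took 20.8 to 23.0% of the joined reads in ZNFX1 KO and 20.07 to 24.09% in WT. A retained-intron transcript, CD47-204, took 8.23, 7.33 and 7.17% in ZNFX1 KO against 13.1, 10.3 and 8.83% in WT, lower in all 3 KO libraries (exact two-sided permutation p = 0.1, the smallest possible). This p-value was not adjusted over the transcript rows looked at, of which no other reached 0.1. The share of all transcript rows whose groups did not overlap was not computed. As a share of joined TPM the groups overlapped, with KO 1 at 1.72% and WT 3 at 1.71%. SIRPA, the receptor gene of CD47, was low, at 0.919 TPM in ZNFX1 KO and 1.02 TPM in WT. Of 5 other tested genes of phagocytosis checkpoints edgeR called 0. CALR, whose product calreticulin is a signal for phagocytosis on the cell surface, was at 688 CPM in ZNFX1 KO and 486 CPM in WT (log2 fold change 0.50, SE 0.25, edgeR adjusted p = 0.387), and B2M, the light chain of class I HLA, at 248 CPM in ZNFX1 KO and 284 CPM in WT (log2 fold change -0.20, SE 0.17, edgeR adjusted p = 0.601).

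CD58 (LFA-3; ENSG00000116815.16, chromosome 1, 116514535 to 116571039, minus strand) was at 7.06, 7.29 and 5.52 CPM in ZNFX1 KO against 9.55, 9.34 and 12.99 CPM in WT. All 3 KO libraries were below all WT libraries in CPM (log2 fold change -0.68, SE 0.23), whereas in TPM KO 2 (6.10) and WT 2 (6.07) overlapped. Of 6 tested adhesion ligands of lymphocytes edgeR called 0. The most abundant were ICAM2 (log2 fold change -0.16, SE 0.22, edgeR adjusted p = 0.747) and CD59, an inhibitor of complement, at 635 ± 147 CPM in ZNFX1 KO and 307 ± 68.6 CPM in WT (SD, n = 3 each; log2 fold change 1.05, SE 0.25, edgeR adjusted p = 0.118).

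VSTM1 was at 13.9, 13.8 and 18.6 CPM in ZNFX1 KO 1, 2 and 3, against 1.77, 1.70 and 2.44 CPM in WT 1, 2 and 3, from 275 to 358 reads in a KO library and 33.7 to 53.6 reads in a WT library. The 2 groups were far apart, and the highest library of each exceeded the lowest by 1.35 times in KO and 1.43 times in WT. The means of 15.5 ± 2.75 CPM in ZNFX1 KO and 1.97 ± 0.408 CPM in WT (SD, n = 3 each) gave a log2 fold change of 2.95 (SE 0.26). The fold change was 2.81 to 3.16 when any 1 library was left out.

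The VSTM1-206 transcript, listed in a row of its own, was at 4.61, 3.66 and 5.19 TPM in ZNFX1 KO against 0.760, 0.477 and 0.606 TPM in WT. Like the gene row it was higher in all 3 KO libraries. It took 32.7, 24.2 and 27.7% of the joined reads of VSTM1 in ZNFX1 KO against 39.3, 22.3 and 22.4% in WT, and the groups overlapped (exact two-sided permutation p = 1.0). With all rows joined, the log2 fold change of VSTM1 was 2.82 (SE 0.21).

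The weighted length of the VSTM1 gene row was 654.0 bases in each WT library, which is the length of VSTM1-202, the transcript without the 285-base exon printed above. In ZNFX1 KO it was 656.6, 677.0 and 677.9 bases, above WT in all 3 libraries, with an exact two-sided permutation p of 0.1, the smallest possible (0.35 after Benjamini-Hochberg adjustment over 7 genes). KO libraries were all longer for 5.56% of the tested genes whose length varied. The gene row held only 33.7 to 53.6 reads in a WT library, against 275 to 358 in a KO library. A rare longer transcript could go unseen in WT at that depth, and the part of depth in the constant WT length was not tested. The basic-set transcripts other than VSTM1-202 have 608, 922 and 1023 bases. Transcript rows of the files had the GENCODE 29 length for all 98267 identifiers shared with it, but the gene-row lengths of CD274 (3634 bases) and PDCD1LG2 (2432 bases) are those of no basic-set transcript there (3343 and 3644 bases, and 2365 bases). The authors' annotation release is not given in the sources used here, so the match of 654.0 bases to VSTM1-202 holds only as far as it shares that transcript with GENCODE 29. For the other 5 genes whose length varied (SLAMF6, CD276, NECTIN2, CD47 and CD58) the exact permutation p was 0.3 to 0.9, and the lengths of CD274, PDCD1LG2 and LGALS9 were constant.

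**Figure D5:**
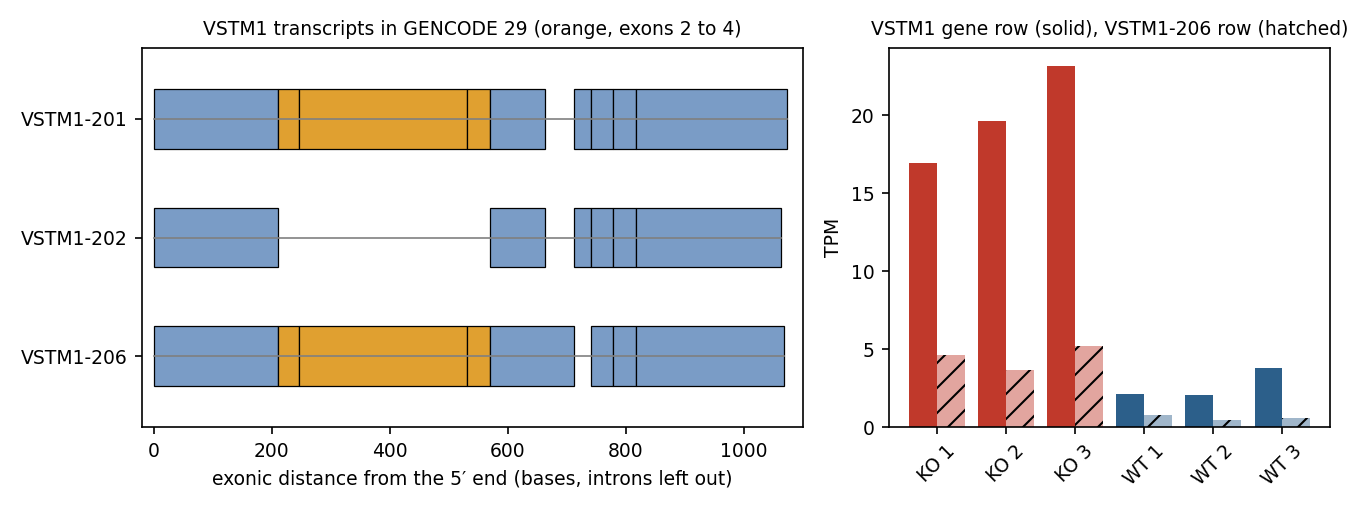
Left, exons of 3 VSTM1 transcripts in GENCODE 29 by exonic distance from the 5′ end in bases, with exons 2 to 4 in orange. Right, TPM of the VSTM1 gene row (solid bars) and of the VSTM1-206 row (hatched bars) in each library, with ZNFX1 KO (red) left of WT (blue), the KO libraries reaching 16.9 to 23.2 TPM in the gene row and 3.66 to 5.19 TPM in VSTM1-206.

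VSTM1 lies at the edge of the leukocyte receptor complex. The levels of its neighbours are given as a description and are not set against the call of VSTM1. TARM1, a related receptor gene 5942 bases away on the same strand, had at most 2.0 reads in a library. CACNG6, the nearest coding gene on the other side, was at 51.5 ± 7.29 CPM in ZNFX1 KO and 68.6 ± 26.2 CPM in WT (SD, n = 3 each; log2 fold change -0.41, SE 0.29, edgeR adjusted p = 0.512). Of 10 tested neighbours edgeR called 0, with 8 fold changes above 0, 2 below and a median log2 fold change of 0.16. The most abundant were RPS9, a ribosomal protein gene (383 CPM in ZNFX1 KO, 364 CPM in WT; log2 fold change 0.07, SE 0.21, edgeR adjusted p = 0.884), and NDUFA3, a subunit of respiratory complex I (50.9 CPM in ZNFX1 KO, 34.6 CPM in WT; log2 fold change 0.55, SE 0.19, edgeR adjusted p = 0.253; higher in 3 of 3 KO libraries). Of 4 other tested leukocyte immunoglobulin-like receptors of the region 1 was called, beside 0.727% of all genes tested. LILRB1, an inhibitory receptor for class I HLA, fell to 2.12 ± 0.272 CPM in ZNFX1 KO, against 9.03 ± 3.97 CPM in WT (log2 fold change -2.08, SE 0.36, edgeR adjusted p = 0.0481; lower in 3 of 3 KO libraries). It was called in 8 of 17 alternatives (edgeR, limma or DESeq2 adjusted p 2.88e-05 to 0.26, log2 fold change -2.33 to -1.0) and not without KO 1, KO 2, KO 3, WT 1 or WT 2. With all libraries kept, the call was also lost with limma-voom, log2(TPM + 1), effective length as an offset and the replicate block. Reads may be split among the near-identical members of the LILRB1 family.

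SLAMF6 (NTB-A or Ly108; ENSG00000162739.14, chromosome 1, 160485030 to 160523262, minus strand) was at 17.3, 32.3 and 30.8 CPM in ZNFX1 KO 1, 2 and 3, against 6.07, 5.56 and 5.15 CPM in WT 1, 2 and 3. Every KO library was above every WT library, with KO 1 the lowest of the KO group and the WT libraries within 1.18 times of each other. The means of 26.8 ± 8.26 CPM in ZNFX1 KO and 5.59 ± 0.464 CPM in WT (SD, n = 3 each) gave a log2 fold change of 2.26 (SE 0.27).

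The rest of the SLAM family was near or at 0. Of the 10 other genes of the list, 0 passed the filter and 5 had no reads, among them SLAMF1, LY9, CD244 and the adaptor SH2D1A, which carries the signal of SLAM receptors in lymphocytes. CD84, the nearest coding neighbour of SLAMF6 on the same strand, had 3.0 to 6.0 reads in ZNFX1 KO and 5.0 to 8.0 reads in WT, and VANGL2 on the other side was as low (0.0647 CPM in ZNFX1 KO, 0.0644 CPM in WT). Of 9 tested genes around SLAMF6 1 was called, beside 0.727% of all genes tested. It was TSTD1, a thiosulfate sulfurtransferase gene (161037631 to 161038990) that lies farther from SLAMF6 than CD84. TSTD1 fell to 0.179 ± 0.229 CPM in ZNFX1 KO, against 8.36 ± 2.80 CPM in WT (SD, n = 3 each; edgeR adjusted p = 0.0203; lower in 3 of 3 KO libraries). Its call held in 13 of 17 alternatives (edgeR, limma or DESeq2 adjusted p 2.55e-14 to 0.163) and not without KO 2, KO 3 or WT 1, nor with the replicate block. The fitted log2 fold change of TSTD1, -5.47 (SE 0.73), rests on few KO reads.

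Across the 6 libraries the log2-CPM of CD274 had a Pearson r of 0.92 with PDCD1LG2, 0.91 with SLAMF6 and 0.80 with VSTM1, and VSTM1 and SLAMF6 had an r of 0.96. These values describe 6 libraries that fall into 2 groups, so any genes that differ between the groups are correlated. Among the 10612 genes at or above a mean log2-CPM of 2, the patterns most like CD274 were those of GABARAPL2, an autophagy gene (r = 0.9875), ENSG00000290659 (0.9872) and PXMP4 (0.9856). GABARAPL2 was at 53.9, 62.7 and 62.3 CPM in ZNFX1 KO against 53.0, 53.4 and 50.0 CPM in WT, with KO 1 again the lowest KO library, over a much smaller range. The patterns most like VSTM1 were those of NME7 (0.9962), ARPC1A (0.9914) and ACTN1 (0.9914), and those most like SLAMF6 were ATP1B1 (0.9981), TMX4 (0.9875) and EMP3 (0.9864). ATP1B1, a subunit of the sodium pump, was at 37.2, 63.2 and 60.01 CPM in ZNFX1 KO against 16.6, 17.3 and 14.8 CPM in WT.

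Of the receptors that bind the ligands, PDCD1, PVRIG and CD2 had no reads, and of 5 tested genes edgeR called 0. RGMB, which binds PD-L2, was at 111 ± 17.7 CPM in ZNFX1 KO and 73.1 ± 7.49 CPM in WT (SD, n = 3 each; log2 fold change 0.60, SE 0.18, edgeR adjusted p = 0.198), and P4HB, a partner of galectin-9, was at 324 CPM in ZNFX1 KO and 292 CPM in WT (log2 fold change 0.15, SE 0.16, edgeR adjusted p = 0.668). In bulk RNA, fewer cells of a kind and less RNA per cell cannot be told apart, which holds for every level given here.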

How the data were processed

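RNA from untreated TYK-nu cells was sequenced in 6 libraries (3 ZNFX1 KO, 3 WT) prepared with a strand-marking kit for total RNA, per the labels' protocols. The submitters' processing notes list FastQC, Trimmomatic, Salmon and DESeq2. The deposited files give, per row, an estimated count of fragments, a TPM value, a length and an effective length, from Salmon as run by the authors, per the labels. Genome build, annotation release and strand setting: not given in the sources used here. Of 197169 rows 62260 are genes and 134909 are transcripts listed apart, which hold 9.93 to 10.7% of the fragments per library and did not enter the main fit. Coordinates come from GENCODE 29 (GRCh38), which holds 57833 of the gene rows, and all rows were named from a gene table. No column of per-sample values was left aside.

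Estimated counts were rounded and filtered by filterByExpr (14166 genes), scaled by TMM (factors 0.958 to 1.04) and tested with the quasi-likelihood test of edgeR 4.0.16 in R 4.3.3, two-sided, on genotype alone. P-values were adjusted by Benjamini-Hochberg over the 14166 genes and called below 0.05. A standard error is the size of the log2 fold change over the square root of F. The fit was tested on simulated data. Log2-CPM used a prior count of 2. The smallest chi-square per degree of freedom between libraries was 27.7, so none was counted as a duplicate. Alternatives used DESeq2 1.42.0 and limma 3.58.1 besides edgeR, other scalings and filters, TPM, joined transcript rows, the replicate number as a block and leaving out each library.

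The 10 genes and the gene lists were chosen with earlier results of these data known. Of 18 lists, the text names called genes (up to 3 in each direction) or, where none was called, the 2 tested genes with the highest mean TPM, plus the 3 genes most like CD274, VSTM1 and SLAMF6 and their nearest neighbours. Other genes named with values were chosen after their values were seen. They are those whose levels are given as few or no reads, the receptor SIRPA, IRF1, ENTPD1, the antisense gene of PVR, and the cell markers other than KRT18, MECOM, ITGAX and LYZ. The symbol DDX58 was unmatched.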

Additional observations from a re-analysis of the deposited data

Results flagged for a closer look

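The files hold transcript rows outside the gene rows used for the main measurements, among them one of VSTM1. VSTM1-206 was at 4.49 ± 0.776 TPM in ZNFX1 KO and 0.614 ± 0.142 TPM in WT (SD, n = 3 each), so a signal above that of WT was present in a row that the fit of gene rows does not count. Its mean share of the joined VSTM1 reads was 28.2% in ZNFX1 KO and 28.0% in WT. The higher level thus follows that of the gene row and is no separate support. Groups of 3 libraries were not tested for outlying values.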

How the results depend on the processing

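Of the 9 tested genes among the 10, each kept its direction in all 17 alternatives except CD276 (above 0 in 2) and NECTIN2 (below 0 in 2), neither of which was called in any. Calls of these genes rest on the contrast that chose them and support nothing. The number of the 9 genes called was 1 with log2(TPM + 1) and 1 with the replicate block, and 0 to 3 when a library was left out. On the log2(TPM + 1) scale, which understates changes of low genes, the log2 fold changes were 1.03 for CD274, 0.52 for PDCD1LG2, 2.54 for VSTM1 and 1.65 for SLAMF6.

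Over all genes the count of 103 calls became 602 with no filter, 579 with the DESeq2 Wald test, 187 with transcript rows joined, 22 with log2(TPM + 1) and 14 with the replicate block. Leaving out a library gave 2 (without KO 2) to 1315 (without WT 3), with 7 without KO 3, 24 without WT 1, 57 without WT 2 and 110 without KO 1. The cause was not tested. The log2 fold change of ZNFX1 was -1.03 to -0.53 over these fits, and without WT 3 (-1.01) it was called (edgeR adjusted p = 0.0468). Of the 7 genes with varying length, 2 had lengths that did not overlap, and 2 to 3 when a library was left out (9.78% over all tested genes of varying length). Same-numbered libraries deviated together with r of 0.13, -0.04 and 0.01, so the numbers were not taken as pairs.

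Depth limits LGALS9, with at most 9.0 reads a library, and PDCD1LG2 and the WT levels of CD274, with 9.0 to 81.1 and 22.1 to 38.5 reads.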

Other observations

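Among ligands of the TNF family that costimulate lymphocytes, 6 genes were tested and 1 was called, beside 0.727% of all genes tested. TNFSF18, the ligand of the GITR receptor, rose to 43.8 ± 3.27 CPM in ZNFX1 KO, against 15.7 ± 4.23 CPM in WT (SD, n = 3 each; log2 fold change 1.48, SE 0.22, edgeR adjusted p = 0.0281; higher in 3 of 3 KO libraries). The call was made in 11 of 17 alternatives (edgeR, limma or DESeq2 adjusted p 3.16e-07 to 0.163, log2 fold change 1.33 to 1.72) and was lost without KO 1, KO 2, KO 3 or WT 1. With all libraries kept, it was also lost with log2(TPM + 1) and with the replicate block.

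Of 8 tested ligands of NKG2D and other NK cell receptors edgeR called 0. HLA-E was at 593 CPM in ZNFX1 KO and 754 CPM in WT (log2 fold change -0.35, SE 0.36, edgeR adjusted p = 0.653), and CLEC2B at 149 CPM in ZNFX1 KO and 92.0 CPM in WT (log2 fold change 0.70, SE 0.27, edgeR adjusted p = 0.293). Of 5 tested immunosuppressive enzymes edgeR also called 0. NT5E (CD73), which makes adenosine, was at 107 ± 5.17 CPM in ZNFX1 KO and 56.3 ± 13.98 CPM in WT (SD, n = 3 each; log2 fold change 0.92, SE 0.20, edgeR adjusted p = 0.0966), and ARG2, an arginase, at 34.9 CPM in ZNFX1 KO and 66.1 CPM in WT (log2 fold change -0.92, SE 0.31, edgeR adjusted p = 0.242). ENTPD1 (CD39), named after its values were seen, was at 2.32, 12.1 and 10.2 CPM in ZNFX1 KO against 2.10, 2.06 and 2.10 CPM in WT (log2 fold change 1.97, SE 0.54, edgeR adjusted p = 0.160). As for CD274, KO 1 was close to the WT libraries and KO 2 and KO 3 were above them.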
